A study of Mus musculus with 12 samples.

Results

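The genes described here are 36 type I interferon-stimulated genes of the mouse, chosen by gene symbol. A gene counted as measured where the array's annotation gave at least 1 probe set to its symbol and to no other. This held for 34 of the 36, out of 18193 genes measured in this way. Isg15, whose probe set carried several symbols, and Ifi44 were not analysed here. The 34 genes had 58 probe sets, and 16 of the genes had more than 1. Each gene was represented by its brightest probe set, and all values are log2 expression, on which a difference of 1 is a doubling.

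Expression was measured with 12 Affymetrix arrays in KSL cells, a bone marrow fraction sorted as c-Kit+ Sca-1+ Lin- and enriched for haematopoietic stem and progenitor cells. The cells came from mice of 2 to 4 months of age that were wild-type or Fancc-/-, a loss of a subunit of the Fanconi anaemia DNA repair complex. All cultures received IL-6, IL-11, Flt3L and SCF in medium with 10% serum for 24 h, so no group held freshly sorted cells, and the treated cultures also received TNF, an inflammatory cytokine, at 10 ng/ml. Each genotype had an untreated and a treated group, 4 groups in all with 3 arrays each, and the comparisons ask whether TNF, genotype or their combination moved the interferon-stimulated genes. Nothing in the labels ties replicates to separate mice. The p-values therefore describe only the variation among these arrays, part of which may be technical.

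Type I interferons bind the receptor IFNAR, whose kinases JAK1 and TYK2 phosphorylate STAT proteins. STAT2 and IRF9 are subunits of the resulting complex ISGF3, which binds the interferon-stimulated response element (ISRE) in promoters and switches on antiviral genes: sensors of viral RNA, enzymes that block translation or degrade RNA, and the ISG15 system that tags proteins. In bone marrow, interferon signalling is known to push quiescent stem cells into cycle, and many of these genes are also active at rest in stem cells. TNF signals mainly through NF-kB, and in several cell types it is known to induce part of the same gene set.

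Some features of the arrays bear on every result below. Untreated wild-type replicate 1 stood apart, a remark made after its values were seen: 5.1% of all genes lay more than 0.5 from their group mean there, against 1.34% to 3.22% on the other arrays. It was the highest array of its group for 18 of the 34 members, with Oasl2 1.10 and Ifit1 0.95 above the group mean. The matching share of all genes was not computed. On this array 7 members lay more than 0.5 above the group mean, where 3.52% of all genes did. More than 0.5 below it lay 1 member (1.58% of all genes). The brightest Fancc probe set read 8.22 to 8.65 on the wild-type arrays and 8.73 to 9.16 on those labelled mutant, so its signal was not lower there. Its place relative to the targeted exon was not looked up, and a probe set elsewhere in the gene checks nothing. Genotype is given as labelled. Of the KSL markers, Kit read at least 9.95, Cd34 at least 12.81 and Flt3 at least 11.44 on all 12 arrays, and Slamf1 at most 4.51, while Ly6a, which encodes Sca-1, was not analysed here. Xist and the Y-linked Eif2s3y differed between replicates: Xist read 5.06 to 5.47 on 3 untreated arrays and at least 12.04 on the other 9. Eif2s3y read 3.79 on treated wild-type replicate 3, 4.16 on untreated mutant replicate 2 and 10.46 to 11.88 elsewhere. Low Xist thus occurred on untreated arrays only, so this signal was not balanced between treated and untreated arrays.

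Promoters of the members were searched for the ISRE core in RefSeq's GRCm38.p6 promoter windows, which run from 250 bases before to 50 bases after a gene's start. Of the 36 members, 27 had a window. The ISRE core, GAAA, any 2 bases and GAAA, searched like the other patterns on both strands, occurred in 14 of the 27, against 3.99% of all 27025 genes with a window (3.44% of 32851 windows). The gamma-activated site, TTCNNNGAA, occurred in 5 of the 27 (9.55% of all genes) and the kappa B pattern of NF-kB (GGGA, any 2 bases, TTCC) in 2, Gbp2 and Ifit2 (1.63% of all genes). Matches were allowed to overlap, and ISRE cores did so in Gbp3, Oas1a, Bst2 and Isg15, as did matches to different patterns in Bst2 and Ifit2. A match says only that these letters are present. The 160 bases before the start are shown for 3 of the genes called for TNF below (Ifit3, Oas1a and Gbp3), for Ifit1 and Rsad2, which carry the core and were not called, and for Oasl1, which was called lower and has no ISRE core in its window. Capitals mark ISRE cores, also where read on the opposite strand. The regions are chr19:34583369-34583528 (plus strand) for Ifit3, chr5:120907526-120907685 (minus) for Oas1a, chr3:142559884-142560043 (plus) for Gbp3, chr19:34640729-34640888 (plus) for Ifit1, chr12:26456453-26456612 (minus) for Rsad2 and chr5:114923080-114923239 (plus) for Oasl1.
Ifit3: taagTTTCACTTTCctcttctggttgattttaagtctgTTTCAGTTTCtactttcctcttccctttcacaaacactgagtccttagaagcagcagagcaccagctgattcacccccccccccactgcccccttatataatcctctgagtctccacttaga
Oas1a: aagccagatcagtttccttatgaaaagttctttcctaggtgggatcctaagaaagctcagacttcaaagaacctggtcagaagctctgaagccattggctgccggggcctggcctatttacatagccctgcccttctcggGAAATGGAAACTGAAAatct
Gbp3: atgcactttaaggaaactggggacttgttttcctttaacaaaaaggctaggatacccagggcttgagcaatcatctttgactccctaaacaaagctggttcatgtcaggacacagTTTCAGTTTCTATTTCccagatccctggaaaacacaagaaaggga
Ifit1: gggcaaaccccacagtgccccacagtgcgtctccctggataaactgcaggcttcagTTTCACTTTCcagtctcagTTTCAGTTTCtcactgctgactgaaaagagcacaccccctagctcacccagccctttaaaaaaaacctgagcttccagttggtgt
Rsad2: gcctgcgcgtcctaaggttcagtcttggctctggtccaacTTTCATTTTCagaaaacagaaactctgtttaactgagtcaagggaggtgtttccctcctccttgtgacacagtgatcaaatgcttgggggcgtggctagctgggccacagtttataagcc
Oasl1: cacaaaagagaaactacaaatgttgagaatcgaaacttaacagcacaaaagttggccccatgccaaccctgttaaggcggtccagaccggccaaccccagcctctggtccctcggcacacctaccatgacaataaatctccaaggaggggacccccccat
In Oas1a the cores overlap and end 5 bases before the start, while in Ifit3 they lie 147 to 156 and 113 to 122 bases before it. Gbp3 has a further start in RefSeq whose window holds no core. In Ifih1 the core is GAAACAGAAA, 33 to 42 bases after the start, and in Ddx58 it is TTTCGATTTC, 3 to 12 bases after the start. Of the members called higher for TNF in the average of both genotypes, given next, 8 had a window and 6 of those held an ISRE core, against 7 of 16 that were measured and not called. No test was run on these counts, and a gene with 2 windows, as Gbp3 and Trim30a have, counted where either held a core. Isg15, not measured, held 3 cores.

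TNF raised a minority of the members, by small amounts. In wild-type cells 6 of 34 rose and 0 fell (limma, adjusted p under 0.05 over all genes), where 2.69% of all genes rose and 2.33% fell (5.02% together). The 6 were Ifih1, Ddx58, Usp18, Ifit3, Oas1a and Gbp3. On the mutant arrays 4 rose (Ifih1, Oas1a, Parp14 and Ube2l6) and Oasl1 fell, where 2.45% of all genes rose and 1.86% fell (4.31% together). Averaged over genotype, a comparison that uses the same arrays, 10 rose and 1 fell, where 5.81% of all genes rose and 6.32% fell (12.1% together). Ifit2 and Trim30a were called in this average alone. These were bulk samples, in which fewer cells of a type and less RNA per cell cannot be told apart. Fitting only the groups compared left Ifih1 called in wild type, and Ifih1 and Oas1a on the mutant arrays. When Xist and Eif2s3y were added to the model as covariates, Ifih1, Oas1a and Ifit3 kept their call in wild type, Ifih1, Oas1a and Oasl1 on the mutant arrays, and Ifih1, Oas1a, Ddx58 and Ifit3 in the average.

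The median log2 change of the 34 members was 0.21 in wild type and 0.08 on the mutant arrays, against -0.03 for all genes in each. It was positive for 27 members in wild type and for 24 on the mutant arrays, where 42.7% and 42.1% of all genes were positive, and for 24 in the average (40.7%). At an unadjusted p under 0.05 there were 12 members in wild type (17.8% of all genes), 9 on the mutant arrays (17.1%) and 14 in the average (26.0%). The arrays of the compared groups did not overlap for 11 members in wild type, 10 of them higher (8.87% of all genes higher, 11.7% lower), and for 8 on the mutant arrays, 7 of them higher (10.4% and 15.8%). On the brightest probe sets, in both genotypes only Ifih1 differed by at least 2-fold. All 6 treated arrays of both genotypes lay above all 6 untreated ones for Ifih1, Oas1a, Parp14 and Trim30a (3.89% of all genes), and below them for 0 members (4.02%).

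**Figure D1:**
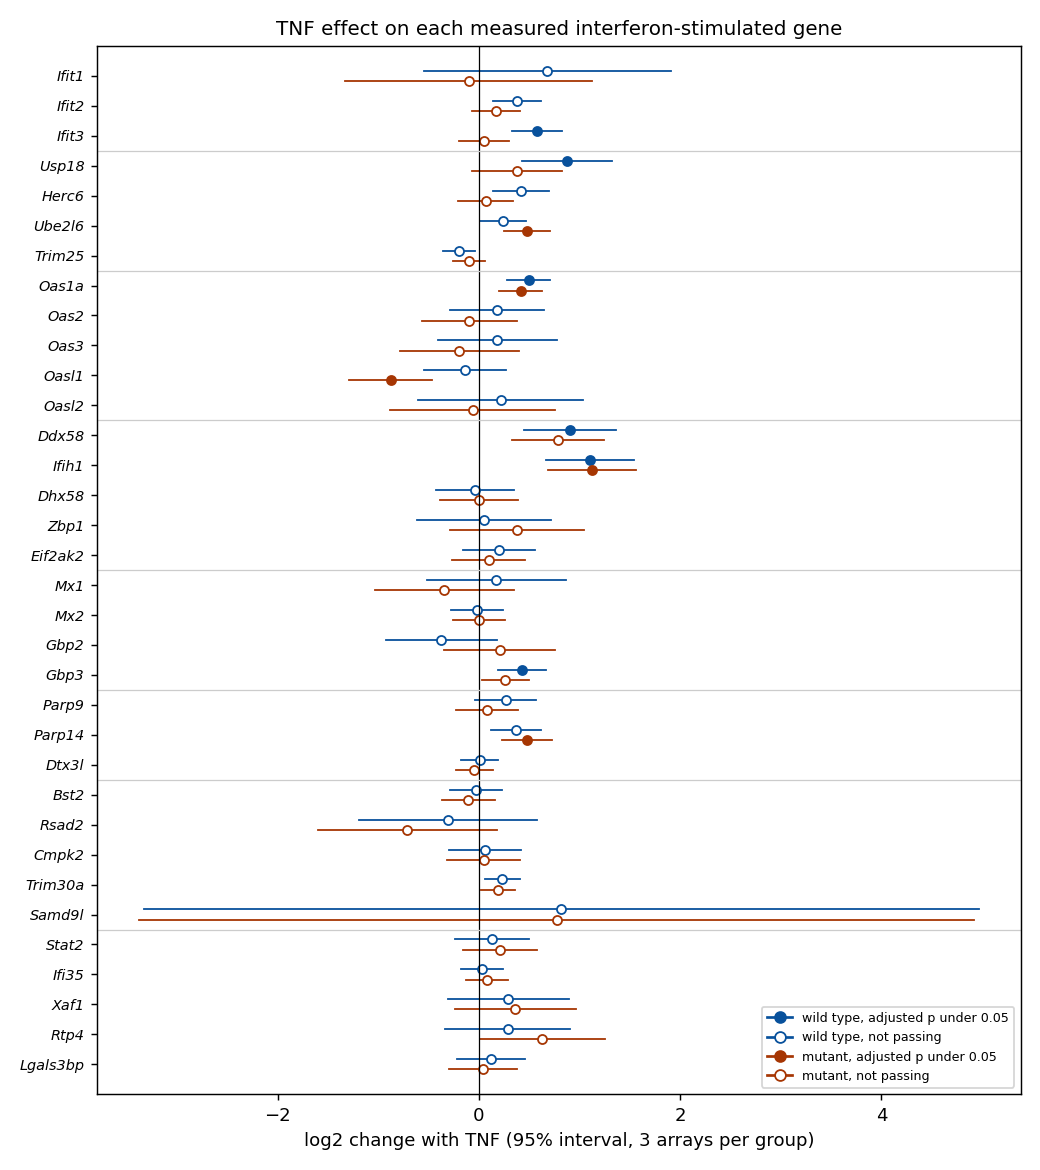
Log2 change with TNF (x axis) for each of the 34 measured members, grouped by role, in wild type (blue) and on the mutant arrays (brown), with 3 arrays per group. Lines are 95% intervals and filled points passed (adjusted p under 0.05); most points lie between -0.5 and 0.5, Ifih1 lies near 1.1 in both genotypes, and the interval of Samd9l spans most of the axis.

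The sensors of viral RNA held the largest rises. Ifih1 encodes MDA5, which recognises long viral RNA, and its probe set 1426276_at read 8.98, 8.36 and 8.41 in untreated wild-type cells and 9.43, 9.77 and 9.86 in treated ones. On the mutant arrays it read 8.53, 8.96 and 8.41 without TNF and 9.52, 9.92 and 9.84 with it. All treated arrays were above all untreated ones. Ifih1 rose by 1.11 in wild type (2.15-fold, SE 0.20, limma adjusted p = 0.0099) and by 1.13 on the mutant arrays (2.18-fold, SE 0.20, adjusted p = 0.00952), and passed in each of the 20 alternative settings of either comparison.

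Ddx58 encodes RIG-I, which detects short RNA with a 5′ triphosphate. Its probe set 1456890_at read 7.65, 6.79 and 7.24 in untreated and 8.28, 8.09 and 8.03 in treated wild-type cells. The mutant arrays read 6.91, 7.08 and 6.54 without TNF and 7.50, 7.87 and 7.52 with it, so treated arrays lay above untreated ones within each genotype, though untreated wild-type replicate 1 lay above 2 of the treated mutant arrays. Ddx58 rose by 0.91 in wild type (1.88-fold, SE 0.21, adjusted p = 0.0299) and by 0.85 in the average (SE 0.15, adjusted p = 0.00337), while its change of 0.79 on the mutant arrays did not pass (SE 0.21, adjusted p = 0.0615). In wild type Ddx58 lost its call when untreated replicate 2 or 3, or any treated replicate, was omitted (adjusted p from 0.0732 to 0.0869). With the mean of its probe sets the wild-type change was 0.54 and did not pass (adjusted p = 0.0867, in a range of 0.00931 to 0.16 over the alternatives). The average kept its call in all 19 settings. A dimmer probe set of Ddx58, 1436562_at, gave 0.51 in wild type and 1.16 on the mutant arrays, and neither passed.

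The other sensors did not pass for TNF. Dhx58 encodes LGP2, a regulator of both RNA sensors, and stayed between 6.46 and 7.18 on all arrays, with a change of -0.02 in the average (SE 0.12). Zbp1, a sensor of Z-form nucleic acid that starts necroptosis, ran from 5.59 to 7.29 (average change 0.21, SE 0.21). Eif2ak2, the kinase PKR that stops translation when it binds viral RNA, ran from 9.52 to 10.29 (0.15, SE 0.12).

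Among the IFIT genes, whose products bind viral RNA or block its translation, Ifit3 rose in wild type. Probe set 1449025_at read 5.91, 6.02 and 5.69 in untreated wild-type cells and 6.53, 6.57 and 6.27 with TNF. It read 6.18, 5.97 and 6.20 on the untreated mutant arrays and 6.16, 6.10 and 6.24 on the treated ones. The wild-type groups did not overlap, and the mutant groups did. The rise in wild type was 0.58 (1.50-fold, SE 0.11, adjusted p = 0.0146) and the change on the mutant arrays 0.05 (SE 0.11, adjusted p = 0.884); the test of that difference is given with the interaction below. Ifit3 lost its wild-type call when untreated replicate 3 or treated replicate 2 was omitted (adjusted p = 0.0567 and 0.0554). In the average it rose by 0.32 (SE 0.08, adjusted p = 0.0262), a call lost on omission of any of 6 arrays: untreated wild-type replicate 3, untreated mutant replicate 2, treated wild-type replicate 1 or 2, and treated mutant replicate 1 or 3 (adjusted p from 0.0529 to 0.0657).

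Ifit2 (1418293_at) read 8.67, 8.33 and 8.46 on untreated and 8.99, 8.73 and 8.85 on treated wild-type arrays. It read 8.57, 8.79 and 8.52 on untreated and 8.79, 8.79 and 8.81 on treated mutant arrays. The wild-type groups did not overlap, and untreated mutant replicate 2 lay level with the treated mutant arrays. Ifit2 rose by 0.27 in the average (SE 0.08, adjusted p = 0.0406), a call lost in 13 of 19 settings, among them the omission of untreated wild-type replicate 2 or 3, untreated mutant replicate 1 or 3, treated wild-type replicate 1 or 3 or any treated mutant array (adjusted p from 0.0755 to 0.0929).

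Ifit1 varied most within groups among the IFIT genes. It read 5.32, 3.55 and 4.23 in untreated wild-type cells, 4.08, 5.76 and 5.29 with TNF, 5.15, 5.53 and 6.86 on the untreated mutant arrays, and 5.56, 5.56 and 6.11 with TNF. Replicates of a group differed by more than the group means did for TNF, the groups overlapped, and the TNF change of 0.68 in wild type (SE 0.56) and -0.10 on the mutant arrays (SE 0.56) did not pass.

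The ISG15 system attaches the small protein ISG15 to other proteins. Usp18, which removes ISG15 and also damps the interferon receptor, read (1418191_at) 6.26, 6.21 and 6.65 on untreated and 6.87, 7.47 and 7.41 on treated wild-type arrays. It read 6.35, 7.0 and 6.46 on untreated and 7.12, 6.88 and 6.95 on treated mutant arrays. Treated wild-type arrays were all above untreated ones, while untreated mutant replicate 2 lay among the treated mutant arrays. Usp18 rose by 0.87 in wild type (1.83-fold, SE 0.20, adjusted p = 0.0324) and by 0.63 in the average (SE 0.14, adjusted p = 0.0162), and its 0.38 on the mutant arrays did not pass (SE 0.20). Omitting untreated replicate 1 or 2, or replicate 2 or 3 of the treated group, ended the wild-type call (adjusted p from 0.0877 to 0.122), as did testing every probe set (adjusted p = 0.0523, in a range of 0.0142 to 0.182 over the alternatives).

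Ube2l6 encodes UBCH8, the E2 enzyme that conjugates ISG15, and its probe set 1417172_at read 4.92, 5.02 and 4.72 on the untreated mutant arrays and 5.40, 5.39 and 5.30 with TNF. In wild-type cells it read 5.41, 5.35 and 5.55 without TNF and 5.78, 5.73 and 5.52 with it. The mutant groups did not overlap, the wild-type groups did, and the treated mutant arrays reached the level of the untreated wild-type arrays. Ube2l6 rose by 0.48 on the mutant arrays (1.39-fold, SE 0.10, adjusted p = 0.0249) and by 0.36 in the average (SE 0.07, adjusted p = 0.00819), and its 0.24 in wild type did not pass (SE 0.10, adjusted p = 0.247). Omitting untreated replicate 1 or 3, or any treated mutant array, ended the mutant call (adjusted p from 0.054 to 0.0909). All values of this probe set lay below the median of all values (6.02), and the filter on low values removed the gene.

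Herc6, the main ISG15 ligase of the mouse, read 7.95, 7.62 and 7.55 on untreated and 7.99, 8.20 and 8.19 on treated wild-type arrays. It read 7.82, 7.86 and 7.71 on untreated and 7.77, 8.08 and 7.74 on treated mutant arrays. The wild-type arrays did not overlap and the mutant arrays did, but neither the 0.42 in wild type (SE 0.13, adjusted p = 0.0929) nor the 0.07 on the mutant arrays (SE 0.13) passed. Trim25, a ubiquitin ligase that activates RIG-I, was lower on all treated wild-type arrays (11.07 to 11.18, against 11.30 to 11.33), by a difference of -0.20 that did not pass (SE 0.07, adjusted p = 0.16).

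Some proteins of the oligoadenylate synthetase family make the messenger that activates RNase L, though not every one does. Of its 5 genes here 2 passed, in opposite directions. Oas1a (1424775_at) read 8.83, 8.77 and 8.68 in untreated wild-type cells and 9.15, 9.12 and 9.49 with TNF. It read 8.66, 8.66 and 8.69 on the untreated mutant arrays and 9.08, 9.06 and 9.11 on the treated ones. All 6 treated arrays lay above all 6 untreated ones, and the replicates of each mutant group lay close together (SD 0.02 in each). Oas1a rose by 0.50 in wild type (1.41-fold, SE 0.10, adjusted p = 0.0144), by 0.41 on the mutant arrays (1.33-fold, SE 0.10, adjusted p = 0.0365) and by 0.46 in the average (SE 0.07, adjusted p = 0.00147, kept in all 19 settings). The wild-type call was lost without untreated replicate 3 (adjusted p = 0.0601), and the mutant call without any array of its own 2 groups or untreated wild-type replicate 2 (adjusted p from 0.0529 to 0.115). The mutant call was lost too with every probe set tested (adjusted p = 0.0675) and with median centring (0.0575), and in 10 of 20 settings in all (adjusted p from 0.00929 to 0.115 over all of them).

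Oasl1, which in the mouse is known to hold back translation of Irf7, was the only member that fell. Probe set 1424339_at read 6.42, 6.31 and 6.94 on the untreated mutant arrays and 5.70, 5.46 and 5.88 with TNF. In wild-type cells it read 5.96, 5.88 and 5.60 without TNF and 5.87, 5.74 and 5.41 with it. The untreated mutant group was the highest, above every other array, and the other 3 groups overlapped. Oasl1 fell by 0.88 on the mutant arrays (SE 0.19, adjusted p = 0.0239) and by 0.51 in the average (SE 0.13, adjusted p = 0.0293), and the change of -0.14 in wild type did not pass (SE 0.19). Omitting untreated mutant replicate 3, or replicate 1 or 2 of the treated group, ended the mutant call (adjusted p from 0.063 to 0.0923), and that in the average ended without those arrays, untreated wild-type replicate 1 or 2 or treated wild-type replicate 3 (adjusted p from 0.0515 to 0.0716).

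Oas2, Oas3 and Oasl2 did not pass for TNF. Oas2 ran from 5.67 to 6.47, Oas3 from 4.61 to 5.75 and Oasl2 from 6.23 to 8.04, with average changes of 0.04, -0.01 and 0.08. Treated and untreated arrays overlapped in each of them, and Oas2 and Oasl2 had their maximum on untreated wild-type replicate 1.

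Of the GTPases, only Gbp3 rose. Guanylate-binding proteins attack the membranes around intracellular pathogens, and Gbp3 (1418392_a_at) read 9.40, 9.23 and 9.48 on untreated and 9.85, 9.79 and 9.75 on treated wild-type arrays. It read 9.32, 9.49 and 9.22 on untreated and 9.69, 9.42 and 9.71 on treated mutant arrays. The wild-type groups did not overlap, and treated mutant replicate 2 lay below untreated mutant replicate 2. Gbp3 rose by 0.43 in wild type (1.35-fold, SE 0.11, adjusted p = 0.0438) and by 0.35 in the average (SE 0.08, adjusted p = 0.0124), and its 0.26 on the mutant arrays did not pass (SE 0.11). The wild-type call was lost without any array of its own 2 groups, and without untreated mutant replicate 1 or treated mutant replicate 1 or 3 (adjusted p from 0.0551 to 0.131). It was lost too with every probe set tested (adjusted p = 0.0743) and with median centring (0.0881), and in 14 of 20 settings in all (adjusted p from 0.0292 to 0.261 over all of them).

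Gbp2 ran from 6.95 to 8.40, again with its maximum on untreated wild-type replicate 1, and did not pass. Mx1, which traps viral nucleocapsids, ran from 5.23 to 6.72 without passing. Mx2 stayed at 3.30 to 3.74 on all arrays, inside the range below the 25th percentile of all values (4.14), where a change would be compressed.

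**Figure D2:**
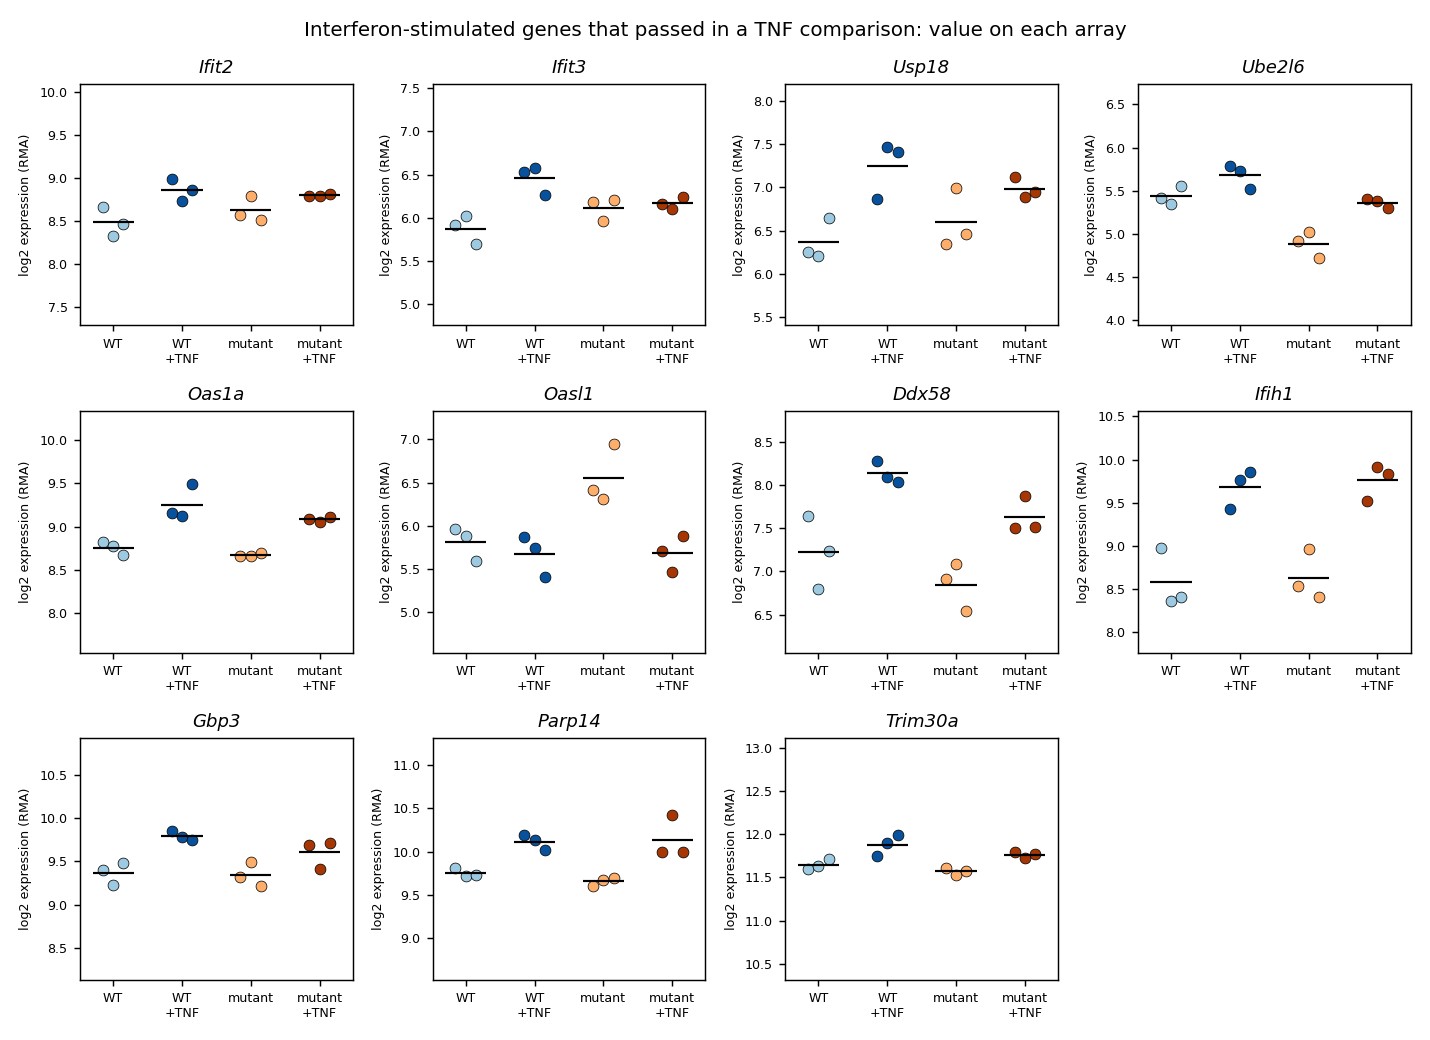
Log2 expression (RMA) on each array for the 11 members that passed in at least 1 TNF comparison; every panel spans the same log2 width around the gene's mean, points are arrays, bars are group means of 3 arrays, WT is wild type. Treated arrays sit above untreated ones in both genotypes for Ifih1, Oas1a, Parp14 and Trim30a, and Oasl1 is highest on the untreated mutant arrays.

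Parp14, a mono-ADP-ribosyltransferase, rose on the mutant arrays. Probe set 1451564_at read 9.61, 9.68 and 9.70 without TNF and 9.99, 10.43 and 9.99 with it. In wild-type cells it read 9.80, 9.71 and 9.73 without TNF and 10.19, 10.13 and 10.02 with it. All treated arrays were above all untreated ones. The rise was 0.48 on the mutant arrays (1.39-fold, SE 0.11, adjusted p = 0.0388) and 0.42 in the average (SE 0.08, adjusted p = 0.00566), and the 0.37 in wild type did not pass (SE 0.11, adjusted p = 0.101), except without treated mutant replicate 2 (adjusted p = 0.0195, in a range of 0.0195 to 0.319 over the alternatives). The mutant call was lost without any untreated mutant array, treated mutant replicate 2, or replicate 2 or 3 of either wild-type group (adjusted p from 0.0522 to 0.111). It was lost too with every probe set tested (adjusted p = 0.0678), and in 12 of 20 settings in all (adjusted p from 0.0215 to 0.175 over all of them). Its partners Parp9 (8.99 to 9.74) and Dtx3l (12.06 to 12.29), which together form a ubiquitin ligase of the DNA damage and interferon responses, did not pass.

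Among the other antiviral effectors Trim30a, a restriction factor and inhibitor of NF-kB signalling, read (1451860_a_at) 11.60, 11.63 and 11.71 on untreated wild-type arrays and 11.75, 11.90 and a higher value on the treated ones (group mean 11.88, SD 0.13). It read 11.61, 11.52 and 11.58 on untreated and 11.79, 11.72 and 11.77 on treated mutant arrays. No treated array fell to the level of an untreated one, but the gap was narrow. Trim30a rose by 0.21 in the average (1.16-fold, SE 0.05, adjusted p = 0.0297), a call lost in 12 of 19 settings, among them the omission of replicate 2 of any group, untreated mutant replicate 3, treated wild-type replicate 3 or treated mutant replicate 1 or 3 (adjusted p from 0.0519 to 0.0747). With the mean of its 2 probe sets the average change was 0.08 (adjusted p = 0.519).

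Bst2 (tetherin, which holds budding virus on the cell) stayed between 10.08 and 10.54, and Cmpk2, a mitochondrial nucleotide kinase, between 5.14 and 5.76. Rsad2 (viperin) ran from 6.23 to 8.08, with the treated mutant arrays at 6.44, 6.23 and 7.78, and its average change of -0.51 did not pass (SE 0.28, adjusted p = 0.295). Samd9l, singled out after its values were seen, had the widest range of all members, from 3.06 to 9.05. It read 6.57, 3.46 and 7.90 on untreated and 8.25, 9.05 and 3.07 on treated wild-type arrays, then 3.74, 6.43 and 7.19 on untreated and 7.80, 3.06 and 8.81 on treated mutant arrays. Each group had at least 1 array under 4 and at least 1 over 7, so no group difference could be seen in it.

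Of the signalling and remaining members none passed. Rtp4, an interferon-induced chaperone of receptors that restricts some viruses, came nearest: it read 7.94, 6.83 and 6.84 on untreated and 7.07, 7.72 and 7.68 on treated wild-type arrays. It read 6.67, 6.89 and 6.58 on untreated and 7.08, 7.46 and 7.49 on treated mutant arrays. The mutant groups did not overlap, and in wild type untreated replicate 1 was the highest array of all. The average change was 0.46 (SE 0.20, adjusted p = 0.173), and 0.64 without that array (SE 0.13, adjusted p = 0.0121, in a range of 0.0121 to 0.302 over the alternatives). Stat2, the ISGF3 subunit, ran from 6.76 to 7.49, Ifi35 from 12.17 to 12.54, Xaf1 from 8.01 to 9.31 and Lgals3bp from 10.66 to 11.39, all without passing.

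Without untreated wild-type replicate 1, the array that stood apart, in wild type 8 members rose with TNF and 0 fell, where 2.85% of all genes rose and 1.81% fell in the same refit. On the mutant arrays 5 rose and 1 fell (2.91% and 2.32% of all genes), and in the average 13 rose and 0 fell (6.19% and 6.04%). In wild type Herc6 (0.54, SE 0.12, adjusted p = 0.0294), Ifit2 (0.46), Oasl2 (0.77) and Lgals3bp (0.34) then passed and Usp18 and Gbp3 did not (adjusted p = 0.0877 and 0.0768). On the mutant arrays Ddx58 passed as well (0.79, adjusted p = 0.0271), with the same change as before and a smaller pooled spread. In the average Herc6 (0.30), Lgals3bp (0.19) and Rtp4 were added, and Oasl1 did not pass (-0.47, adjusted p = 0.0601).

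**Figure D3:**
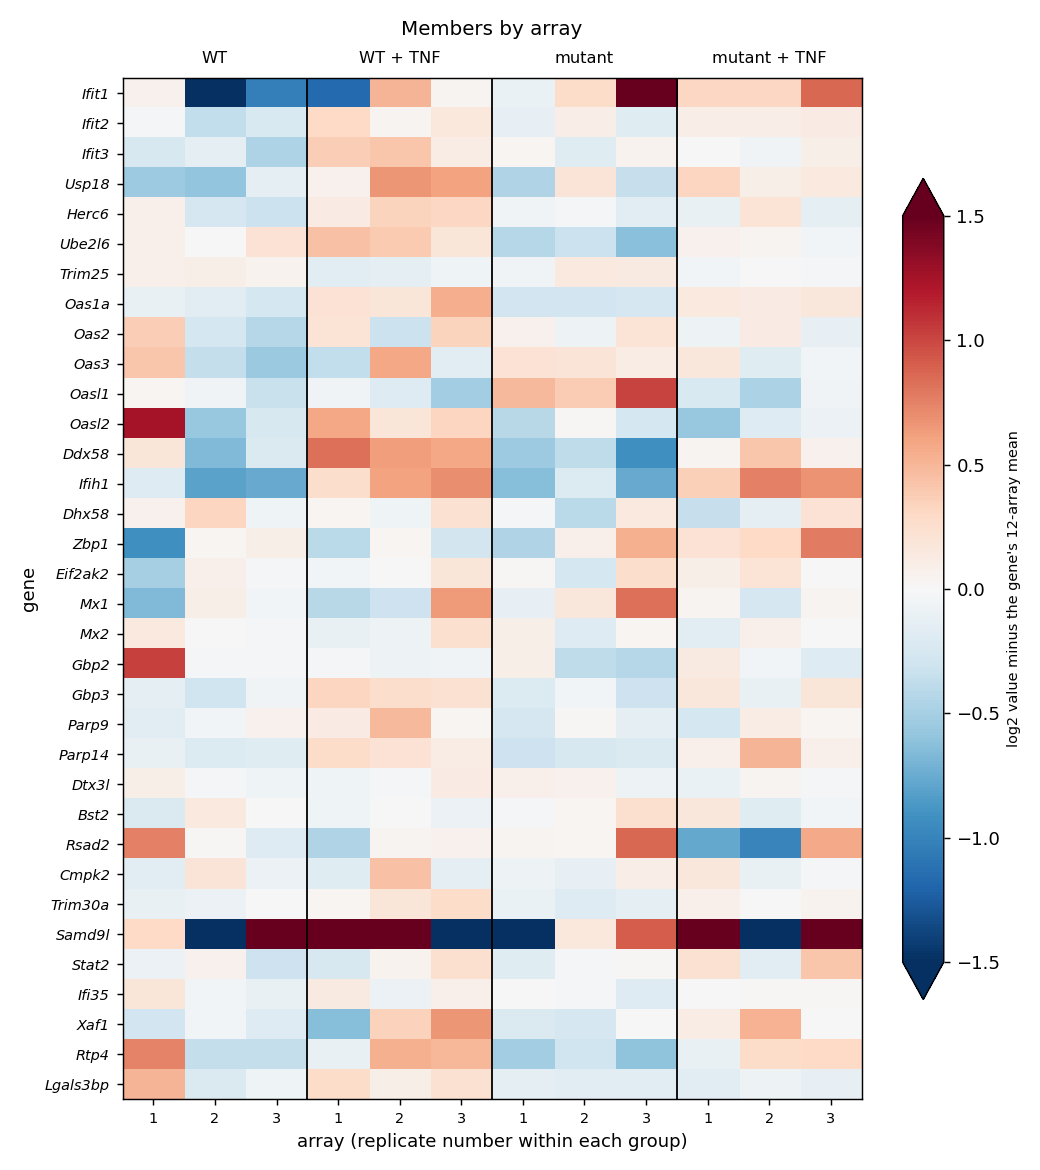
Deviation of each member from its own mean over the 12 arrays (log2, colour scale cut at -1.5 and 1.5), with members in rows and arrays in columns by group and replicate; WT is wild type. Ifih1 turns from blue to red with TNF in both genotypes, Samd9l changes colour within every group, and untreated wild-type replicate 1 is red for Oasl2, Gbp2, Rsad2 and Rtp4.

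The comparisons of genotype asked whether the members differed between wild-type and mutant arrays, and 0 of 34 passed in limma, without TNF, with TNF or in the average, where 0.0055%, 0.0055% and 0.022% of all genes passed in either direction (in the average 0.011% higher and 0.011% lower). At an unadjusted p under 0.05 there were 4, 3 and 6 members (4.12%, 5.6% and 7.39% of all genes). The median difference of the members, mutant minus wild type, was 0.01 without TNF and -0.05 with it, against -0.01 for all genes in each. The 95% interval of a member reached 0.36 to either side at the median, before adjustment over genes, and larger differences also did not pass.

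Ube2l6, a gene with low signal on all arrays, had the smallest p in all 3 genotype comparisons. On the values given above, all untreated mutant arrays lay below all untreated wild-type arrays, and all treated mutant arrays below all treated wild-type ones. The difference was -0.55 without TNF (SE 0.10, adjusted p = 0.65), -0.31 with TNF (SE 0.10, adjusted p = 0.687) and -0.43 in the average (SE 0.07, adjusted p = 0.137), and none of these passed. Oasl1 stood 0.74 higher on the untreated mutant arrays without overlap (SE 0.19, adjusted p = 0.992), and Ifit1 1.48 higher with overlap (SE 0.56, adjusted p = 0.992). Ifit1 read 3.55 to 5.32 on the untreated wild-type arrays, below the median of all values (6.02). The filter on low values removed this gene. With TNF, Ddx58 was at -0.50 (SE 0.21, adjusted p = 0.839) and Ifit3 at -0.29 (SE 0.11, adjusted p = 0.798), and their arrays did not overlap between genotypes. Without TNF the arrays of the genotypes did not overlap for 1 member higher and 2 lower (3.82% and 4.28% of all genes), and with TNF for 2 higher and 7 lower (4.2% and 6.79%). With TNF the 2 higher ones were Zbp1 and Trim25. The 7 lower ones were Ifit3, Ube2l6, Oas1a, Oasl2, Ddx58, Gbp3 and Lgals3bp.

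The interaction, which tests whether the TNF change differed between genotypes, passed for 0 of 34 members and 0.0% of all genes in limma, and 2 members had an unadjusted p under 0.05 (2.9% of all genes). The smallest p-values belonged to Ifit3 (-0.53, SE 0.16), Oasl1 (-0.74, SE 0.26) and Herc6 (-0.35, SE 0.18), each a lower TNF change on the mutant arrays and each at an adjusted p of 1. The 95% interval of the difference ran from -0.88 to -0.18 for Ifit3 and from -1.32 to -0.16 for Oasl1, before adjustment over genes. At the median it reached 0.52 to either side for a member, so the genes called in 1 genotype and not in the other were not shown to differ between them.

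The rest of the interferon pathway was read from 52 measured genes outside the members. For TNF in the average 6 rose and 4 fell, where 5.81% of all genes rose and 6.32% fell. In wild type 4 rose and 1 fell (2.69% and 2.33% of all genes), and on the mutant arrays 3 and 0 (2.45% and 1.86%). None of 10 interferon ligands passed in limma, and 1, Ifna4, had an unadjusted p under 0.05 (-0.29, SE 0.12, adjusted p = 0.156). Ifnb1, the gene of interferon beta, read 2.98 to 3.68 on all 12 arrays, below the 25th percentile of all values. Among 6 receptor genes Ifnlr1, the specific chain of the lambda interferon receptor, rose by 1.80 (SE 0.16, adjusted p = 5.32e-05) from 4.07 to 4.66 on the untreated arrays to 5.60 to 6.80 on the treated ones. Its partner chain Il10rb rose by 0.31 (SE 0.07) and Ifngr1, of the interferon gamma receptor, fell by 0.36 (SE 0.08). Ifnar1 (0.26, SE 0.14) and Ifnar2 (-0.19, SE 0.06), the type I receptor chains, did not pass.

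Of 4 measured signal transducers, Jak2, the kinase of the interferon gamma receptor, rose by 0.80 (SE 0.08, adjusted p = 7.52e-05). Tyk2, a kinase of the type I receptor, fell by 0.32 (SE 0.09, adjusted p = 0.0449), a call lost in 13 of 19 settings (adjusted p from 0.016 to 0.109 over all of them). Irf9, the DNA-binding subunit of ISGF3, did not pass (-0.01, SE 0.07). Irf2 rose by 0.25 (SE 0.06), 1 of 5 interferon regulatory factor genes, while Irf7 did not pass (0.07, SE 0.08). Of 11 genes that lead to interferon production, the kinase gene Ikbke rose by 0.99 (SE 0.17) and the receptor gene Tlr4 fell by 0.82 (SE 0.13). Of 6 inhibitors, Socs3 fell by 0.39 (SE 0.09). Il10rb, Irf2, Ikbke and Socs3 were among the calls lost on adding Xist and Eif2s3y as covariates (adjusted p = 0.0897, 0.0813, 0.0524 and 0.146), and Il10rb was lost also without untreated mutant replicate 3, treated wild-type replicate 3 or treated mutant replicate 1 (adjusted p from 0.0521 to 0.0569), and Irf2 without treated wild-type replicate 2 or 3 or treated mutant replicate 2 (adjusted p from 0.0506 to 0.0563).

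Of 10 interferon gamma targets only Cxcl10, a chemokine that draws T cells, passed. It read 5.76, 5.95 and 5.18 on untreated and 7.57, 8.24 and 8.43 on treated wild-type arrays, and 6.87, 6.46 and 8.01 on untreated and 8.55, 7.99 and 8.76 on treated mutant arrays. The wild-type groups were far apart, while untreated mutant replicate 3 reached the lowest treated mutant array. Cxcl10 rose by 2.45 in wild type (SE 0.38, adjusted p = 0.00445), its change of 1.32 on the mutant arrays did not pass (SE 0.38, adjusted p = 0.0908), and it rose by 1.89 in the average (SE 0.27, adjusted p = 0.00114). For scale, all 6 NF-kB targets measured alongside rose in both genotypes, by 1.51 (Nfkbia) to 3.64 (Tnfaip3) in the average, each by more than any member.

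**Figure D4:**
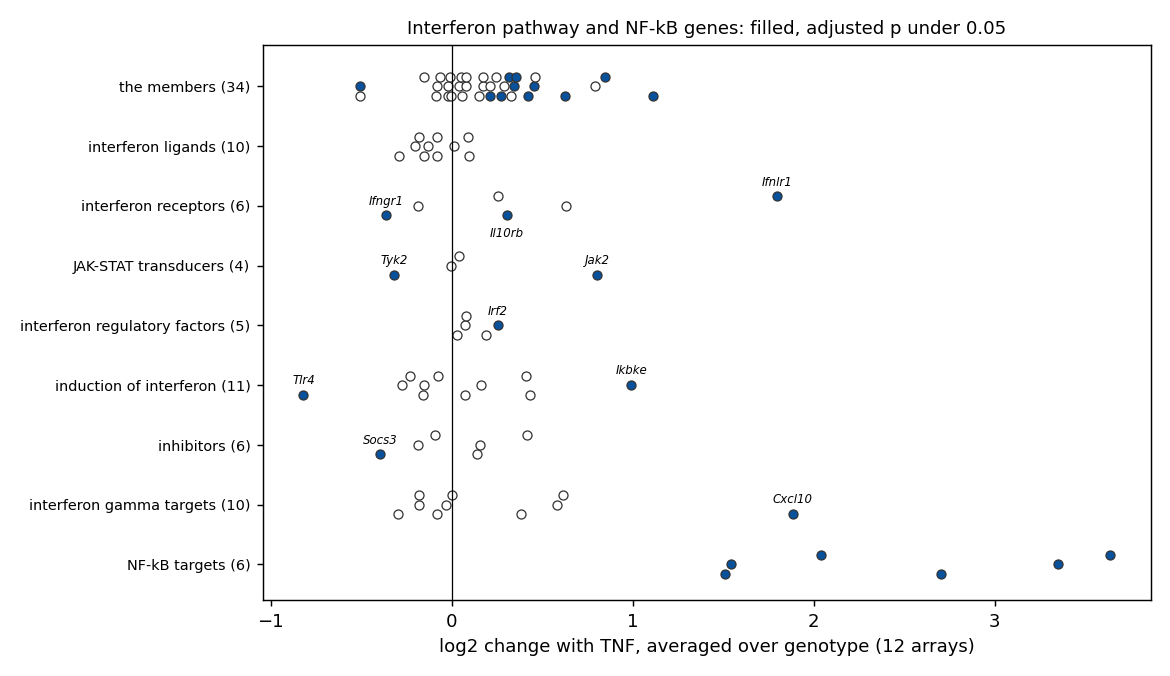
Log2 change with TNF averaged over genotype (x axis, 12 arrays) for the members, for 7 lists of other interferon pathway genes and for 6 NF-kB targets; each point is a gene, filled where the adjusted p was under 0.05, and the number of genes stands in brackets. The members lie between -0.51 and 1.12, while the NF-kB targets lie between 1.51 and 3.64.

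Markers of other cell types moved with TNF as well, and their part in the results above was not tested. All 10 granulocyte markers fell in the average, where 6.32% of all genes fell and 5.81% rose. Their mean level lay at 10.53 to 10.99 on untreated and 7.32 to 8.48 on treated wild-type arrays. On the mutant arrays it lay at 11.03 to 11.39 without TNF and 8.31 to 9.50 with it. Of 7 monocyte markers Ccr2, Irf8 and F13a1 fell and Cx3cr1 rose. Of 5 markers of plasmacytoid dendritic cells, which are strong producers of type I interferon, Ly6d (3.13), Pacsin1 (1.63) and Siglech (0.66) rose in the average, while Cox6a2 (-0.43, SE 0.15) and Ccr9 (0.19, SE 0.32) did not pass. The mean of the list lay at 7.04 to 7.46 on untreated and 7.68 to 8.62 on treated wild-type arrays, and at 7.27 to 7.71 on untreated and 8.32 to 8.83 on treated mutant arrays. Siglech, a defining surface protein of these cells, read 6.61 to 7.30 on untreated and 6.61 to 8.30 on treated arrays. Of 4 B cell markers Ebf1 rose and Cd79a fell, and of 2 erythroid markers Klf1 fell. None of 5 T and NK cell markers passed in limma, with 0 at an unadjusted p under 0.05 and list means of 4.09 to 4.38 on all arrays, and none of 7 KSL markers passed, with 1 at an unadjusted p under 0.05.

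Probe sets of 1 gene did not always move together. Over the 58 probe sets of the members, tested among all 45037 probe sets that are not controls, in wild type 4 rose with TNF and 0 fell, where 1.5% of all these probe sets rose and 1.07% fell. On the mutant arrays 2 rose and 1 fell (1.25% and 0.846% of all), and in the average 8 rose and 1 fell (3.8% and 3.61%). Of the 16 genes with several probe sets, 6 had probe sets of opposite sign in wild type and 8 on the mutant arrays. For Zbp1 on the mutant arrays the brighter probe set changed by 0.38 and the dimmer by -0.43, and neither passed. For Herc6 in wild type the 4 probe sets gave 0.42, 0.01, 0.30 and 1.09, from almost no change to more than a doubling, and none passed.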

How the data were processed

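The authors deposited log2 values for each probe set, computed with RMA per the submitters' processing notes (version not given in the sources used here), and the log base was taken from the values. RMA equalises array distributions, so a shift common to all genes could not be seen. Of 45101 probe sets, 64 were controls; 34945 of the others had 1 gene symbol, and the brightest per symbol gave 18193 genes. Genes were fitted with limma 3.58.1 (R 4.3.3), 1 mean per group over all 12 arrays, with empirical Bayes moderation, 2-sided tests of 7 contrasts and Benjamini-Hochberg adjustment over all genes. The number of arrays limits the precision. Scripts were tested on simulated data. The members and lists were chosen with earlier results of these data known, so counts over them carry no test. Values per array are given for members called in any contrast, the smallest p of each role group, and the 3 smallest p-values of each genotype and interaction contrast; other lists follow the same rule for called genes. The Zbp1 probe sets, Samd9l and further members were named after their values were seen. Alternatives were a replicate block, a filter on low values, averaging all probe sets of a gene, every probe set tested, median centring, cyclic loess, only the groups compared, Xist and Eif2s3y as covariates, and leaving out each array.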

Additional observations from a re-analysis of the deposited data

How the results depend on the processing

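The counts of members called for genotype and interaction were 0 under every alternative run. The number rising with TNF in wild type (6) was 1 when only the groups compared were fitted, 3 with Xist and Eif2s3y as covariates, and 2 to 8 when each array was left out, the low end (2 or 3) on omission of replicate 2 or 3 of either wild-type group. On the mutant arrays the number rising (4) was 2 with a replicate block and 2 with every probe set tested. It was 2 with only the groups compared, 2 with the covariates and 3 with median centring. Averaging all probe sets of a gene gave 5, and leaving out an array 1 to 5. The number falling (1, Oasl1) was 0 with only the groups compared and 0 to 1 with an array left out. In the average the number rising (10) was 9 with the filter on low values, which removed Ube2l6. It was 4 with the covariates and 7 to 13 with an array left out. The number falling (1) was 2 with the filter on low values, 0 with the covariates and 0 to 2 with an array left out. The change of Ifit3 on the mutant arrays (0.05) ran from -0.024 without untreated replicate 2 to 0.094 without untreated replicate 3, and was not called. Of all values of named genes under the alternatives, 1022 kept their direction and side of the threshold, 132 lost the call, 2 gained it and 1 reversed. These values include results not called in the main fit, which had no call to lose, and genes outside the members. They therefore do not give the share of member calls that were lost. The replicate numbers were not used to pair the samples in the main fit. Deviations of same-numbered arrays correlated at -0.16 to 0.28, above 0.1 in 7 of 18 pairs. Those of differently numbered arrays from different groups correlated at -0.33 to 0.18. Whether the numbers pair the samples was not settled here. With the replicate block, Gbp3 in wild type (adjusted p = 0.0677), Oas1a and Parp14 on the mutant arrays (0.0565 and 0.0518) and Ifit2 in the average (0.0571) were not called by limma. Median centring and cyclic loess moved the median of all genes by at most 0.03. Genes near the floor have compressed changes, and 3 arrays per group limit what could be seen.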
